A study of Homo sapiens with 6 samples.

Results

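The proteasome genes were taken as every deposited row whose Ensembl identifier is paired in the gene name table with a protein-coding symbol starting with PSMA, PSMB, PSMC, PSMD, PSME, PSMF or PSMG. This rule used names only and found 50 genes among 40295 rows, of which 35390 had a gene name. They were measured by RNA-seq in HDQ-P1 cells, an established human breast cancer cell line. Y-320 is a small molecule that the study tests for its effects on premature termination codon readthrough and protein synthesis, and the comparison here asks how the transcripts of the main protein-degrading machine differed with it. 3 libraries came from cells given 1 µM Y-320 for 48 h, and 3 came from untreated cells, which are not described as having received solvent. Both groups were the same line, and the labels name no agent other than Y-320 beside the serum and antibiotic-antimycotic of the medium. Neither the labels nor the methods say whether the replicates were separate cultures, so each p-value measures only the spread between these libraries, which may be technical. In bulk RNA, fewer cells of a kind and less RNA per cell cannot be told apart.

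The proteasome degrades proteins that carry ubiquitin chains. Its core particle is a barrel of alpha rings, which gate the entrance, and beta rings, which hold the catalytic sites, and the regulatory particle on its end recognises ubiquitin, removes it and unfolds the substrate with a ring of ATPases. Cells exposed to interferon exchange the catalytic subunits PSMB6, PSMB7 and PSMB5 for the inducible PSMB9, PSMB10 and PSMB8 and make the PSME1 and PSME2 cap, a form called the immunoproteasome that favours peptides for antigen presentation.

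The libraries held 21045401 to 22740535 estimated counts, of which the proteasome genes took 0.585% to 0.609%. Unnamed rows that hold the same counts as some of these genes are not in this share or in the sums below. The squared differences between library pairs of one group were 2.02 to 2.98 times those of sampling noise. Between pairs of different groups they were 40.2 to 42.1 times as large as from sampling noise. The epithelial markers EPCAM, KRT8, KRT18, KRT19 and CDH1 were all present, and their summed level was 7321 to 7633 CPM (reads per fixed library total, normalized by TMM) in untreated libraries and 4538 to 4570 CPM with Y-320. KRT8, KRT18 and KRT19 were lower in all 3 Y-320 libraries, whereas EPCAM was higher (6395 to 6844 counts untreated and 8541 to 9285 with Y-320) and CDH1 overlapped. The leukocyte markers summed to 1.32 to 1.95 CPM untreated and 2.16 to 2.51 CPM with Y-320, with CD14 and ITGAM higher in all Y-320 libraries, PTPRC lower and CD3E at 2 counts or fewer in each library. The 4 fibroblast markers, led by COL1A2, summed to 197 to 226 CPM untreated and 110 to 124 CPM with Y-320. The part of these marker differences in the results below was not tested.

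The data showed small shifts in both directions. edgeR's quasi-likelihood test could be applied to 48 of the 50 genes, and 16 were higher with Y-320, 12 were lower and 20 did not pass an adjusted p of 0.05. As shares of the 48 these were 33.3% higher and 25% lower, beside 26.2% and 25.4% of all 16580 genes tested, and 58.3% in either direction beside 51.5%. Their median log2 fold change was 0.0006, beside 0.001 for all genes tested, and their median absolute change was 0.11, beside 0.21. A change of at least 0.5 log2 units that passed the test was seen in 1 proteasome gene, PSMC4, which is 2.08% of them beside 15.7% of all genes. The 3 libraries of one group lay wholly above or below the other 3 for 28 proteasome genes (58.3%), beside 59.2% of all genes. These comparisons with all genes were not matched for expression level. The split of the calls depended on the scaling, with 13 higher and 17 lower when libraries were scaled by their upper quartile, which moved the median of all genes by -0.03.

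**Figure D1:**
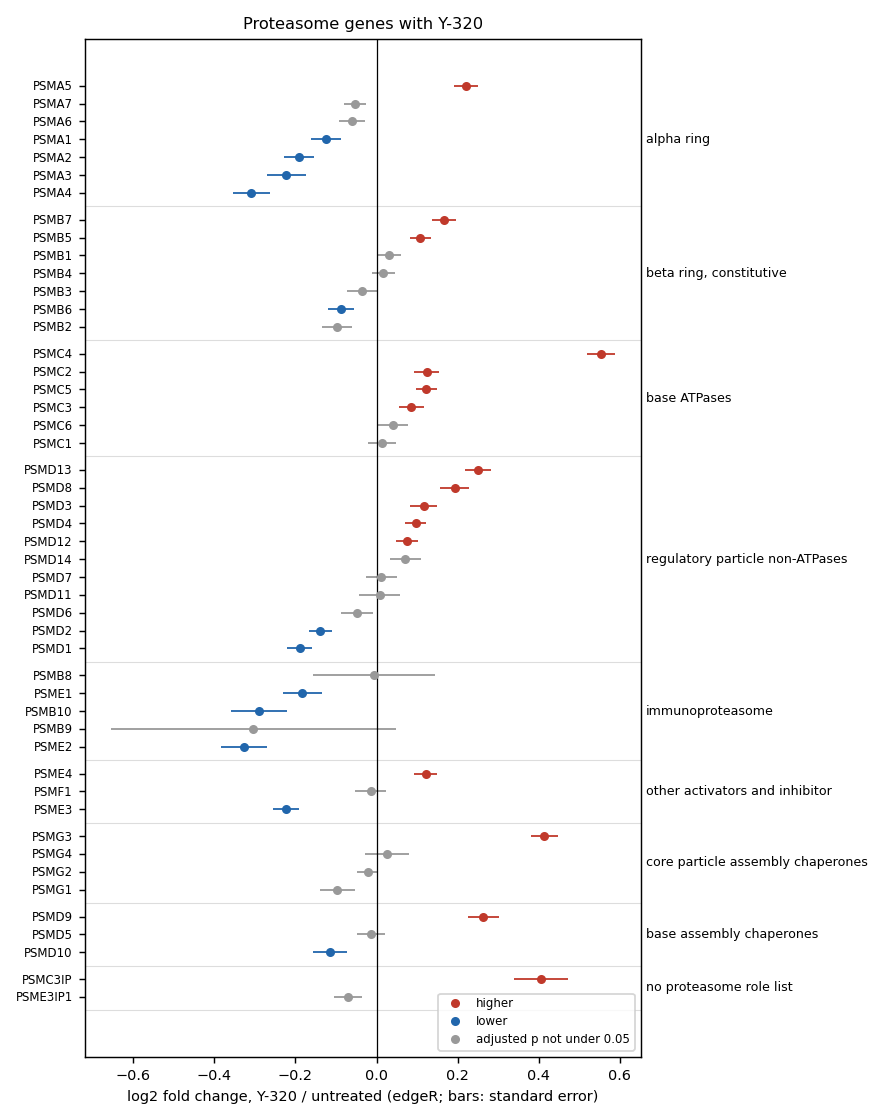
The horizontal axis gives each gene's log2 fold change, Y-320 over untreated, with its standard error from edgeR for the 48 tested proteasome genes, grouped by role. Most points lie within 0.3 of 0, PSMC4 stands farthest to the right at 0.55, and the 5 immunoproteasome genes all lie at or left of 0.

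The summed level of all 50 genes was 5989 ± 111 CPM (SD, n = 3) untreated and 5939 ± 5.91 CPM with Y-320, a ratio of 0.992. This difference was smaller than the spread between the untreated libraries. Per kb of transcript, which allows genes to be compared with each other, the 14 constitutive core subunits had a median of 141 CPM per kb untreated and the 17 regulatory particle subunits 54.8 CPM per kb. The lengths are those of 1 canonical transcript per gene, so the level of a gene that mainly uses a shorter form would be understated. PSMA7 (341 CPM per kb) was the highest core subunit and PSMD2 (248 CPM per kb) the highest regulatory one in untreated cells.

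Of the 7 alpha ring subunits, 4 were lower and 1 higher, 57.1% and 14.3% beside 25.4% and 26.2% of all genes tested. PSMA4, PSMA3, PSMA2 and PSMA1 were lower, PSMA5 was higher, and PSMA6 and PSMA7 did not pass, with a median log2 fold change of -0.12. The lower calls ranged from 3 without untreated replicate 1 to 6 with upper-quartile scaling. PSMA4 was measured at 149, 138 and 136 CPM in untreated replicates 1, 2 and 3 and at 107, 118 and 117 CPM with Y-320. All 3 Y-320 libraries lay below all untreated ones, and the log2 fold change was -0.31 (SE 0.04, adjusted p = 0.000217). PSMA5 was at 123, 120 and 118 CPM untreated and at 137, 139 and 143 CPM with Y-320. It was the one alpha subunit that rose, with every Y-320 library above every untreated one, by 0.22 log2 units (SE 0.03, adjusted p = 0.000116). The falls of PSMA3, PSMA2 and PSMA1 were -0.22, -0.19 and -0.12. PSMA7, the most abundant of the ring, was at 339, 328 and 317 CPM untreated and 314, 318 and 316 CPM with Y-320, and these ranges overlapped (log2 fold change -0.05, SE 0.03, adjusted p = 0.140). PSMA6 had a log2 fold change of -0.06 (adjusted p = 0.136). Both were lower with upper-quartile scaling (-0.09 for PSMA6 and -0.08 for PSMA7) and without untreated replicate 3 (-0.09 and -0.08). The summed ring went from 1170 ± 39.3 to 1095 ± 18.8 CPM (SD, n = 3), a ratio of 0.935, and the lowest untreated library (1135 CPM) was still above the highest Y-320 library (1108 CPM). Every 31-base word of PSMA2, 86.4% of those of PSMA6 and 63.8% of those of PSMA1 also occur in another annotated gene, so the counting may have divided their reads. The call of PSMA1 was lost without untreated replicate 1 (log2 fold change -0.09), Y-320 replicate 2 (-0.12) or Y-320 replicate 3 (-0.11).

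The beta ring gave fewer calls, with 2 of 7 higher and 1 lower. These are 28.6% and 14.3%, beside 26.2% and 25.4% of all genes tested. PSMB7 and PSMB5, which carry the trypsin-like and chymotrypsin-like sites, were higher, and PSMB6, which carries the caspase-like site, was lower. PSMB7 was at 177, 176 and 166 CPM untreated and at 194, 195 and 195 CPM with Y-320. The Y-320 libraries were nearly level and all above the untreated ones, with a log2 fold change of 0.17 (SE 0.03, adjusted p = 0.000746). PSMB5 was at 131, 126 and 128 CPM untreated and at 137, 138 and 140 CPM with Y-320. Its groups did not overlap either, although the change was only 0.11 (SE 0.03, adjusted p = 0.00596). PSMB6 was at 179, 178 and 168 CPM untreated and at 167, 163 and 162 CPM with Y-320. The highest Y-320 library almost touched the lowest untreated one, and the log2 fold change was -0.09 (SE 0.03, adjusted p = 0.0384). This call was lost with library size scaling and without untreated replicate 1 (-0.07), untreated replicate 2 (-0.08), Y-320 replicate 2 (-0.08) or Y-320 replicate 3 (-0.08). The noncatalytic PSMB2 had the lowest log2 fold change of the ring. It was at 169, 173 and 168 CPM untreated and at 168, 156 and 153 CPM with Y-320. Its groups overlapped, and it stood just outside the threshold (log2 fold change -0.10, SE 0.04, adjusted p = 0.0505). PSMB3 (-0.03), PSMB4 (0.02) and PSMB1 (0.03) did not pass. An unnamed row equals PSMB3 within 0.5 counts in every library, so the named row may hold a part of its reads. The summed beta ring was 1188 ± 18.8 CPM untreated and 1204 ± 12.8 CPM with Y-320 (SD, n = 3), and these ranges overlapped.

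Together the 14 core subunits gave 3 higher and 5 lower calls (21.4% and 35.7%), and the 17 subunits of the regulatory particle 9 higher and 2 lower (52.9% and 11.8%), beside 26.2% and 25.4% of all genes tested. The difference between the particles was not tested. With upper-quartile scaling the core gave 3 higher and 8 lower, and the regulatory particle 6 higher and 2 lower. The core gave 3 lower calls without untreated replicate 1, Y-320 replicate 2 or Y-320 replicate 3. The median log2 fold change was -0.06 for the core and 0.07 for the regulatory particle. The summed regulatory particle was 2529 ± 62.4 CPM untreated and 2563 ± 15.3 CPM with Y-320 (SD, n = 3). The summed core was 2358 ± 51.9 CPM untreated and 2298 ± 7.28 CPM with Y-320. Both sums overlapped between groups.

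The base ATPases, which form the unfolding ring, held the largest proteasome change. PSMC4 was at 37.5, 39.4 and 37.9 CPM in untreated replicates 1, 2 and 3 and at 55.7, 56.8 and 56.0 CPM with Y-320. Each group was tight and the gap between them wide, a rise of 46.8% (log2 fold change 0.55, SE 0.04, adjusted p = 4.96e-07) that lay between 0.54 and 0.57 whichever library was left out. An unnamed row of the table holds the same counts as PSMC4 within 0.5 in every library, so the named row may hold a part of its reads. The change itself was also 0.55 with both rows summed. PSMC2, PSMC5 and PSMC3 were also higher, by 0.12, 0.12 and 0.09 log2 units. PSMC2, the next highest, was at 156, 150 and 147 CPM untreated and at 167, 161 and 166 CPM with Y-320, without overlap (SE 0.03, adjusted p = 0.00659). PSMC1 (119, 113 and 118 against 118, 123 and 114 CPM) overlapped and had a log2 fold change of 0.01 (SE 0.04, adjusted p = 0.776). PSMC6 had one of 0.04 (adjusted p = 0.415). Of the 6 ATPases, 4 were higher and none lower, 66.7% and 0% beside 26.2% and 25.4% of all genes tested. The summed ring went from 666 ± 9.93 to 722 ± 5.12 CPM (SD, n = 3), a ratio of 1.08 without overlap. Of the exon bases of PSMC1, 76.1% lie opposite exons of NRDE2, and 34.2% of the 31-base words of PSMC1 occur elsewhere. The call of PSMC3 was lost with upper-quartile scaling (0.06) and without any one library other than untreated replicate 2 (0.05 to 0.09).

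The non-ATPase subunits, which hold the ubiquitin receptors, scaffold and deubiquitinase, gave 5 higher and 2 lower calls of 11 (3 and 2 with upper-quartile scaling or without untreated replicate 3). The 5 and 2 are 45.5% and 18.2%, beside 26.2% and 25.4% of all genes tested. PSMD13 was at 87.2, 87.3 and 86.8 CPM untreated and at 99.4, 106 and 105 CPM with Y-320. This lid subunit was almost identical in the untreated libraries and higher in all treated ones, by 0.25 log2 units (SE 0.03, adjusted p = 9.45e-05). PSMD8, another lid subunit, was at 101, 104 and 96.4 CPM untreated and at 119, 113 and 113 CPM with Y-320. Its groups did not overlap, and the log2 fold change was 0.19 (SE 0.04, adjusted p = 0.00105). PSMD1, the large scaffold of the base, was at 181, 173 and 170 CPM untreated and at 155, 151 and 154 CPM with Y-320. It had the lowest log2 fold change of the list (-0.19, SE 0.03, adjusted p = 0.000427), with no overlap. Its scaffold partner PSMD2 fell as well, by -0.14 (adjusted p = 0.00181). PSMD3 (0.12), the ubiquitin receptor PSMD4 (0.10) and PSMD12 (0.07) were higher. Of the 31-base words, 40.2% of those of PSMD4 and 22.9% of those of PSMD2 occur in another annotated gene. The deubiquitinase PSMD14 (0.07, adjusted p = 0.154), PSMD7 (0.01), PSMD11 (0.01) and PSMD6 (-0.05) did not pass. The summed non-ATPases were at 1863 ± 53.6 CPM untreated and 1841 ± 15.6 CPM with Y-320 (SD, n = 3), and these ranges overlapped. The call of PSMD12 was lost without any one library other than untreated replicate 1 (0.06 to 0.08), that of PSMD3 without untreated replicate 3 (0.10), and that of PSMD4 with upper-quartile scaling (0.07).

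**Figure D2:**
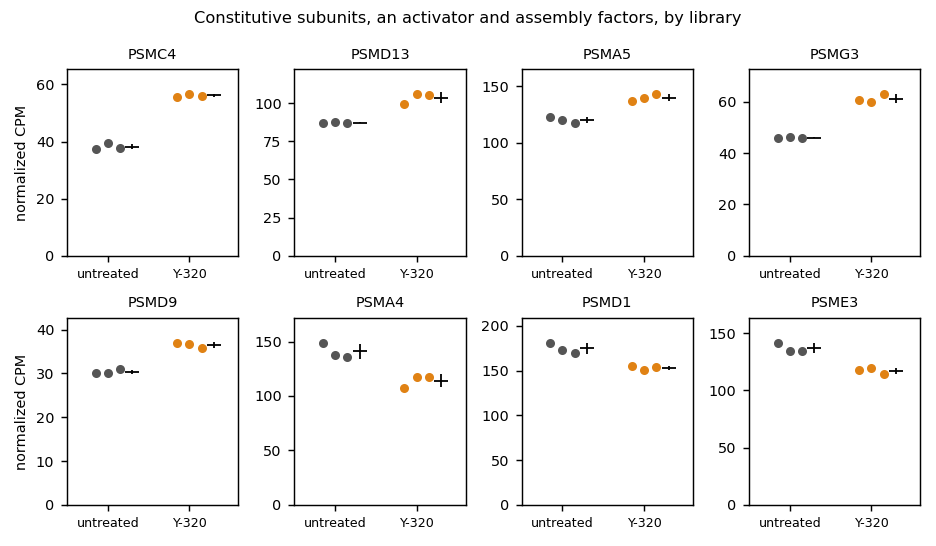
Normalized CPM of 8 proteasome genes in each library (points: replicates 1 to 3 from left to right, bars: mean and SD of 3, vertical axes from 0). PSMC4, PSMD13, PSMA5, PSMG3 and PSMD9 are higher in every Y-320 library than in any untreated one, and PSMA4, PSMD1 and PSME3 are lower.

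The immunoproteasome genes gave 3 lower calls, no higher call and 2 genes that did not pass. Calls in either direction made up 60% of the 5 genes, beside 51.5% of all genes tested. Lower calls made up 60%, beside 25.4%. PSMB10, PSME1 and PSME2 were lower with Y-320, and the inducible catalytic subunits PSMB8 and PSMB9 did not pass the test. The median log2 fold change was -0.29, beside 0.02 for the 31 constitutive subunits, of which 12 were higher and 7 lower (9 and 10 with upper-quartile scaling). The 12 and 7 are 38.7% and 22.6% of the constitutive subunits, beside 26.2% and 25.4% of all genes tested. Per kb, untreated levels ran from 1.44 CPM (PSMB9) to 81.1 CPM (PSME1). The sum of the 5 genes was 167 ± 6.06 CPM untreated and 143 ± 8.35 CPM with Y-320 (SD, n = 3), a ratio of 0.856. The highest Y-320 library (150 CPM) lay below the lowest untreated one (160 CPM). Unnamed rows equal to PSMB9, PSME1 and PSME2, described below, are in neither this sum nor the levels per kb.

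The promoters of these genes are shown because 4 of the 5 carry the same 10 letters near a transcription start, and PSMC4 because it had the largest change. Each line runs from 80 bases before a RefSeq start site to 40 bases from that site on, on the strand of the gene, in assembly GRCh38.p14. Capitals mark matches on either strand to an interferon-stimulated response element core, read here as GAAA, any 2 letters and GAAA, to an antioxidant response element core, TGACNNNGC, or to an NF-Y box, CCAAT. The stretches are chr16:67936811-67936930 on the minus strand for PSMB10, chr14:24136114-24136233 on the plus strand for PSME1, chr14:24146571-24146690 on the minus strand for PSME2, chr6:32844008-32844127 on the minus strand for the downstream start of PSMB8, chr6:32854112-32854231 on the plus strand for PSMB9 and chr19:39971085-39971204 on the plus strand for PSMC4.
PSMB10: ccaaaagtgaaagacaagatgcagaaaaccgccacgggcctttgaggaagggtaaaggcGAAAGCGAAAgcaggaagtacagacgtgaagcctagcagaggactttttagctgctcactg
PSME1: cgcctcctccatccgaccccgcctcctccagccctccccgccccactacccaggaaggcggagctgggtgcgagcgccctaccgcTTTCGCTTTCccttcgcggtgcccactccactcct
PSME2: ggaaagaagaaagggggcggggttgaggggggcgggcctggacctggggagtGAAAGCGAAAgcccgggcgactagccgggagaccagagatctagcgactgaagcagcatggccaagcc
PSMB8: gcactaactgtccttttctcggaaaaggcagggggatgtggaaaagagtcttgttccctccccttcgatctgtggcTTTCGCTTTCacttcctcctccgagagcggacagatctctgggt
PSMB9: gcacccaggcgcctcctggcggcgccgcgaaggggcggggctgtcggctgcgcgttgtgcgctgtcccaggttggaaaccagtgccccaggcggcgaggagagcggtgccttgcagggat
PSMC4: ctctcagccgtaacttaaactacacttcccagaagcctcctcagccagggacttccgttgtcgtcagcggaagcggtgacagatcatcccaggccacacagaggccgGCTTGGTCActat

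The matches of PSMB10 and PSME2 read GAAAGCGAAA on the gene strand and begin 21 and 28 bases before the start site. Those of PSME1 and PSMB8 read TTTCGCTTTC, the same letters on the other strand. The 10 letters were found in 35 of 35116 RefSeq windows of 250 bases before to 50 bases after a start (0.0997%), among them 5 windows of proteasome genes, namely these 4 genes and the assembly chaperone PSMG4. The looser element core, with any 2 letters between, was in 12.7% of 55 windows of proteasome genes and in 3.57% of all windows. PSMB9 had none in its window, and PSMB8 had none in the window of its upstream start, which is not printed. Of the 5 genes with the 10 letters, PSMB10, PSME1 and PSME2 were lower with Y-320, and PSMB8 and PSMG4 did not pass the test. The PSMC4 match GCTTGGTCA, beginning at base 28 after the start, fits the antioxidant core on the other strand, which was in 27.3% of windows of proteasome genes and in 13.3% of all. CCAAT was in 43.6% and 34.6%. A match describes letters only, 44 of the 50 genes were in the promoter table, and the exact 10 letters were looked up after the matches had been seen.

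PSME2, a subunit of the 11S cap, was at 32.0, 36.0 and 36.0 CPM untreated and at 26.4, 28.2 and 28.3 CPM with Y-320. All treated libraries were lower, and the level fell by 20.3% (log2 fold change -0.33, SE 0.06, adjusted p = 0.000665). Its partner PSME1 was at 74.7, 79.4 and 80.6 CPM untreated and at 63.8, 71.1 and 71.9 CPM with Y-320. The groups again did not overlap, with a log2 fold change of -0.18 (SE 0.05, adjusted p = 0.00991). The inducible catalytic subunit PSMB10 was at 37.1, 44.3 and 40.7 CPM untreated and at 30.7, 33.8 and 35.4 CPM with Y-320. It too was lower in every treated library (log2 fold change -0.29, SE 0.07, adjusted p = 0.00557). All 3 calls held without each library in turn. Unnamed rows equal PSME1 and PSME2 within 0.5 counts, so the named rows may hold a part of the reads, and 44% of the 31-base words of PSME2 and 51.6% of those of PSMB10 occur in another annotated gene.

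PSMB8 was at 15.4, 9.24 and 11.4 CPM untreated and at 11.7, 11.9 and 12.5 CPM with Y-320. The treated libraries lay within the untreated range, and the log2 fold change was -0.01 (SE 0.15, adjusted p = 0.977). Without untreated replicate 1 it was 0.21 (adjusted p = 0.104). PSMB9 was the faintest of the 5, at 0.885, 1.26 and 2.24 CPM untreated and 1.08, 0.875 and 1.56 CPM with Y-320, from 19.1 to 49.4 counts. Its ranges overlapped, and the log2 fold change of -0.30 (SE 0.35, adjusted p = 0.507) became 0.135 without untreated replicate 3. Exons of PSMB8 and PSMB9 also lie on 7 alternative contigs of the genome, and an unnamed row equals PSMB9 within 0.5 counts, so the named rows may hold a part of the reads.

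**Figure D3:**
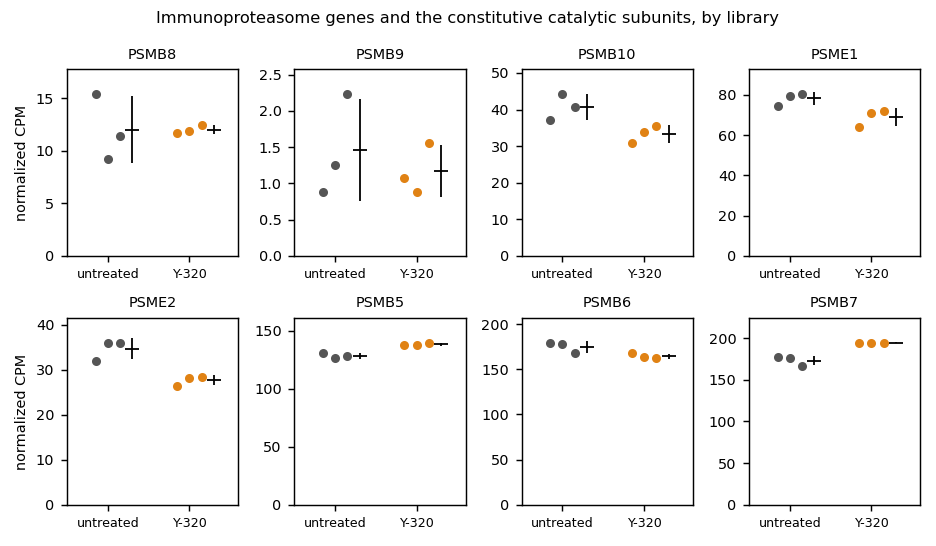
Normalized CPM of the 5 immunoproteasome genes and the constitutive catalytic subunits PSMB5, PSMB6 and PSMB7 in each library (points: replicates 1 to 3 from left to right, bars: mean and SD of 3, vertical axes from 0). PSMB10, PSME1 and PSME2 are lower in all 3 Y-320 libraries, PSMB5 and PSMB7 are higher, and the points of PSMB8 and PSMB9 overlap.

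Each inducible catalytic subunit was then set against the constitutive subunit whose place it takes, as a ratio of levels per kb within a library, which does not depend on scaling. PSMB10 stood at 21.1%, 25.4% and 24.7% of PSMB7 in untreated replicates 1, 2 and 3 and at 16.0%, 17.5% and 18.3% with Y-320. The groups did not overlap and the log2 ratio was lower by -0.46, with p = 0.1 in a two-sided exact permutation test, the smallest that 3 against 3 libraries can give (0.3 adjusted over 3 pairs). PSMB8 stood at 11%, 6.8% and 8.27% of PSMB5 untreated and at 7.90%, 8.0% and 8.28% with Y-320. These overlapped (log2 difference -0.08, exact permutation p = 0.8, adjusted 0.8), and without untreated replicate 1 the difference was 0.10. PSMB9 stood at 0.399%, 0.574% and 1.08% of PSMB6 untreated and at 0.521%, 0.434% and 0.779% with Y-320. This pair overlapped as well (log2 difference -0.17, exact permutation p = 0.7, adjusted 0.8), and the difference was 0.23 without untreated replicate 3 and 0.02 without Y-320 replicate 2. In both groups the named row of the constitutive subunit held the higher level per kb in every pair. The named rows of PSMB8 and PSMB9 may hold a part of their reads, as said above, so their percentages may be too low.

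**Figure D4:**
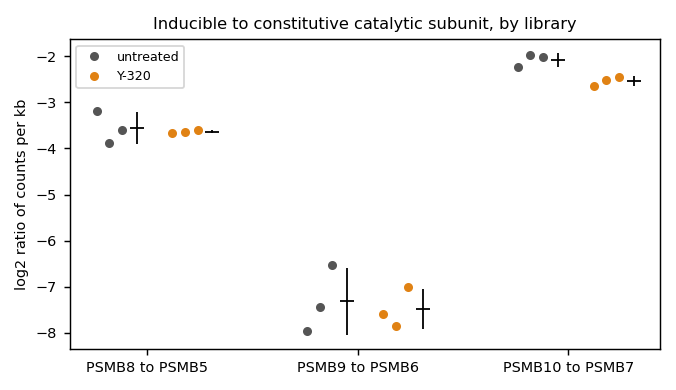
The vertical axis gives the log2 ratio of levels per kb of the inducible to the constitutive catalytic subunit in each library (points: replicates 1 to 3 from left to right, bars: mean and SD of 3). The PSMB10 to PSMB7 ratio is lower in all 3 Y-320 libraries, whereas the other ratios overlap between groups.

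Regulators and neighbours known for this gene set did not move one way. IRF1, a transcription factor of elements of the kind shown above, was at 66.7, 70.4 and 72.4 CPM untreated and at 71.0, 80.7 and 78.9 CPM with Y-320. Its groups overlapped although the test passed (log2 fold change 0.14, SE 0.05, adjusted p = 0.0415), and the call was lost without untreated replicate 1 (0.10), untreated replicate 2 (0.14), Y-320 replicate 2 (0.10) or Y-320 replicate 3 (0.12) and with upper-quartile scaling (0.11, adjusted p = 0.0954). NLRC5, which drives antigen presentation genes, had a log2 fold change of -0.01 (SE 0.07, adjusted p = 0.933). TAP1 and TAP2, the peptide transporter that neighbours PSMB8 and PSMB9, moved apart. TAP1 was at 24.6, 26.4 and 24.9 CPM untreated and at 28.6, 30.1 and 26.4 CPM with Y-320 (log2 fold change 0.17, SE 0.06, adjusted p = 0.0292), and this call was lost without any one library other than untreated replicate 2 or Y-320 replicate 3 (0.13 to 0.16), with DESeq2 (adjusted p = 0.0533) and with upper-quartile scaling (adjusted p = 0.0644). TAP2 was at 18.8, 19.2 and 35.1 CPM untreated and at 14.2, 12.2 and 16.4 CPM with Y-320. Untreated replicate 3 stood far above the others, and the log2 fold change of -0.77 (SE 0.22, adjusted p = 0.0146) was -0.41 without it (adjusted p = 0.0113) and missed the threshold without Y-320 replicate 2 (-0.675, adjusted p = 0.0586). Both TAP genes also have exons on 7 alternative contigs, and 35.5% of the 31-base words of TAP2 occur in another annotated gene.

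The remaining activators and the inhibitor split. PSME3, the nuclear 11S cap, was at 142, 134 and 135 CPM untreated and at 117, 120 and 115 CPM with Y-320. All treated libraries were lower (log2 fold change -0.22, SE 0.03, adjusted p = 0.000169). PSME4, the PA200 cap, was at 118, 112 and 115 CPM untreated and at 125, 126 and 124 CPM with Y-320, and was higher without overlap (0.12, SE 0.03, adjusted p = 0.00486). The inhibitor PSMF1 was at 66.8, 66.5 and 63.4 CPM untreated and at 67.0, 65.6 and 62.1 CPM with Y-320. Its groups overlapped (log2 fold change -0.01, SE 0.04, adjusted p = 0.782). PSMA8, a testis subunit, had no count in any library, and PSMB11, a thymus subunit, had 1 count in 1 library, so neither was tested. A count of 0 still allows up to 3 counts, 0.132 to 0.143 CPM in these libraries (counting error only).

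Among the chaperones that build the core particle, PSMG3 was the one that passed the test. It was at 46.0, 46.2 and 45.8 CPM untreated and at 60.6, 60.04 and 63.2 CPM with Y-320. The untreated libraries were nearly level and every treated one was clearly above them, a rise of 33.2% (log2 fold change 0.41, SE 0.03, adjusted p = 3.6e-06). PSMG4, with which it forms a pair, was at 17.7, 17.9 and 18.1 CPM untreated and at 18.7, 17.4 and 18.6 CPM with Y-320, and overlapped (0.03, SE 0.05, adjusted p = 0.736). The other pair, PSMG1 and PSMG2, had log2 fold changes of -0.10 (SE 0.04, adjusted p = 0.0954) and -0.02 (SE 0.02, adjusted p = 0.494). PSMG1 was at 36.4, 35.1 and 33.7 CPM against 33.9, 32.6 and 31.9 CPM, and PSMG2 at 266, 276 and 269 CPM against 268, 269 and 262 CPM. Both pairs of ranges overlapped, and PSMG1 was lower with upper-quartile scaling (-0.12, adjusted p = 0.0360).

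The chaperones of the base also differed. PSMD9 was at 30.2, 30.2 and 30.9 CPM untreated and at 37.1, 36.7 and 35.8 CPM with Y-320. It rose without overlap by 0.26 log2 units (SE 0.04, adjusted p = 0.000208). A share of 26.8% of the 31-base words of PSMD9 is found in other genes. PSMD10, also known as gankyrin, was at 69.3, 67.6 and 74.7 CPM untreated and at 64.0, 65.5 and 66.1 CPM with Y-320. It was lower (-0.11, SE 0.04, adjusted p = 0.0374), a call lost with library size scaling (-0.10) and without untreated replicate 3 (-0.07) or any one Y-320 library (-0.10 to -0.12). PSMD5 was at 48.8, 47.8 and 48.0 CPM untreated and at 48.0, 46.4 and 48.9 CPM with Y-320, with overlap (-0.01, SE 0.04, adjusted p = 0.776).

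The prefix rule also took in 2 genes that are not proteasome parts. PSMC3IP, a meiotic recombination factor, was at 14.1, 14.5 and 12.5 CPM untreated and at 17.9, 18.6 and 18.0 CPM with Y-320, higher without overlap (0.41, SE 0.07, adjusted p = 0.000501). PSME3IP1, which binds PSME3, was at 84.7, 85.8 and 86.3 CPM untreated and at 80.2, 79.3 and 85.0 CPM with Y-320, and overlapped (-0.07, SE 0.03, adjusted p = 0.107).

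Of 27 partner genes outside the name rule (other subunits, assembly and receptor factors, the NFE2L1 pathway, ubiquitin genes and E1 enzymes), 13 were higher and 4 lower, 48.1% and 14.8% beside 26.2% and 25.4% of all genes tested, with a median log2 fold change of 0.08 beside 0.001. With upper-quartile scaling 9 were higher and 4 lower. The partners were chosen with earlier results of these data known, and their difference from all genes was not tested. ZFAND2A, a proteasome-binding protein known from the arsenite response, was at 33.6, 36.7 and 34.3 CPM untreated and at 53.0, 55.1 and 55.6 CPM with Y-320. It was higher without overlap (log2 fold change 0.65, SE 0.04, adjusted p = 6.55e-07). NFE2L1, the transcription factor that restores proteasome gene expression when the proteasome is inhibited, was at 240, 253 and 244 CPM untreated and at 325, 326 and 336 CPM with Y-320. All treated libraries were higher (0.42, SE 0.03, adjusted p = 6.5e-07).

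UBA1, the main ubiquitin-activating enzyme, had the lowest log2 fold change of the partners (-0.36, SE 0.03, adjusted p = 1.03e-05). It was at 186, 193 and 182 CPM untreated and at 149, 140 and 149 CPM with Y-320. The shuttle UBQLN2 (-0.31, SE 0.05, adjusted p = 0.000631) and the segregase VCP (-0.21, SE 0.02, adjusted p = 4.35e-05) were also lower, and neither overlapped between groups. Among subunits outside the prefix, the ubiquitin receptor ADRM1 was at 169, 162 and 162 CPM untreated and at 189, 182 and 175 CPM with Y-320. It was higher without overlap (0.15, SE 0.03, adjusted p = 0.00343). The small subunit SEM1 (-0.04, SE 0.03, adjusted p = 0.360) and the core maturation factor POMP (0.01, SE 0.04, adjusted p = 0.877) overlapped. Of the 17 partner calls, 12 held without each library in turn.

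**Figure D5:**
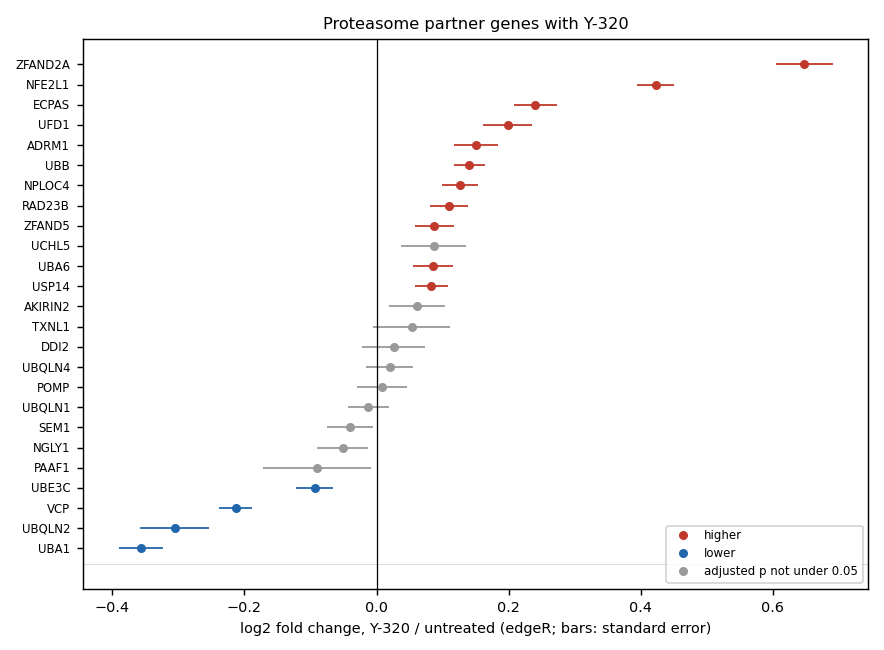
The horizontal axis gives the log2 fold change, Y-320 over untreated, with its standard error from edgeR for 25 of the 27 partner genes. Of the genes drawn, ZFAND2A and NFE2L1 lie farthest to the right at 0.65 and 0.42, and UBA1 and UBQLN2 farthest to the left at -0.36 and -0.31.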

How the data were processed

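RNA-seq libraries of HDQ-P1 cells were grouped by GEO's labels as 3 untreated and 3 treated (Y-320 at 1 µM, 48 h). The authors deposited estimated counts per gene, not normalized, labelled as made with kallisto, for which the submitters' processing notes give version 0.46.1 and builds GRCh38 and hg38. kallisto divides reads that match several transcripts, so 36% of the deposited estimated counts were not whole (by over 0.01) and near-identical copies can gain or lose reads. The paper's methods name hg38 from Ensembl and several combined pipelines. The Ensembl release and the strand setting of the counting are not given in the sources used here.

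Estimated counts were rounded, and gene symbols were looked up by Ensembl identifier. edgeR 4.0.16 in R 4.3.3 filtered rows with filterByExpr (minimum 10 counts, 15 in total), scaled by TMM and fitted a quasi-likelihood model without a block, two-sided, with Benjamini-Hochberg adjustment over 16580 genes and a threshold of 0.05. CPM are TMM-normalized. Levels per kb used the Ensembl canonical transcript of GENCODE 44 on hg38, from which shared 31-base words, antisense exons and 261 alternative contigs were also read. Promoter sequences were RefSeq windows on GRCh38.p14. Ratios of pairs were compared by exact permutation tests. The fit was also run on simulated counts with the same dispersion for every gene and few changed genes. These settings differ from the data, so that run does not test the calls made here. Depth was 21045401 to 22740535 counts per library, so the precision of a low gene is set by its counts.

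The members, role lists, partners, regulators, markers and motifs were chosen with earlier results of these data known. Named with full values were the immunoproteasome genes, PSMB5 to PSMB7, the other activators and the inhibitor, the assembly chaperones, the 2 highest and 1 lowest of each constitutive list, and among partners NFE2L1, POMP, ADRM1, SEM1 and the 3 highest and 3 lowest calls. Alternatives were no filter, a stricter filter, DESeq2 1.42.0, limma-voom (limma 3.58.1), scaling by upper quartile or by library size, each library left out, a replicate block, unrounded counts, a threshold of 0.01 and 0.5 counts added to pair ratios. Summing equal unnamed rows was added after seeing the data. Tables were made in Python 3.11.15 with pandas 2.3.3, numpy 2.4.6 and scipy 1.17.1, and plots with matplotlib 3.10.9. The values of some genes under the rule are not reported here, and counts, medians and sums over lists include them.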

Additional observations from a re-analysis of the deposited data

How the results depend on the processing

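No call of a proteasome gene, partner or regulator named above changed direction under any alternative run, and no count of calls over all proteasome genes, the constitutive subunits, the immunoproteasome genes or the partners moved by more than 1.5 times. Within smaller lists, the lower calls of the core particle (5) ranged from 3 to 8 and those of the beta ring (1) from 0 to 2, the higher calls of the non-ATPases (5) ranged from 3 to 6, and the lower calls of the base chaperones (1) and core chaperones (0) ranged from 0 to 1. Of the 28 proteasome calls, 28 were kept with the stricter filter, limma-voom, unrounded counts and summed equal rows, 27 with DESeq2 (PSMD12 lost), 26 without a filter (PSMD12 and PSMB6 lost), 26 with library size scaling (PSMB6 and PSMD10 lost), 25 with upper-quartile scaling (PSMD12, PSMD4 and PSMC3 lost) and 23 to 26 without one library. At an adjusted p under 0.01, 12 were higher and 9 lower. The 3 immunoproteasome calls held under each of these. PSMB2 passed the threshold with DESeq2, limma-voom, the stricter filter, upper-quartile scaling, the replicate block and without Y-320 replicate 1, PSMG1, PSMA6, PSMA7 and PSME3IP1 with upper-quartile scaling, and PSMD14 without untreated replicate 1. Changes near 0 that did not pass crossed it. With upper-quartile scaling the log2 fold change was -0.003 for PSMG4, -0.0211 for PSMD11, -0.015 for PSMC1, -0.0167 for PSMD7, -0.0116 for PSMB4, -0.0089 for UBQLN4, -0.0024 for DDI2 and -0.0205 for POMP. With library size scaling it was 0.005 for NLRC5, 0.0006 for UBQLN1 and 0.0064 for PSMB8, and with limma-voom 0.0214 for PSMB8. Leaving out one library gave -0.0397 to 0.0174 for PSMF1, -0.0464 to 0.0539 for PSMD11, -0.0148 to 0.0406 for PSMC1, -0.0181 to 0.0529 for PSMD7, -0.565 to 0.135 for PSMB9, -0.0115 to 0.0317 for PSMB4, -0.0734 to 0.0381 for NLRC5, -0.0326 to 0.0322 for POMP, -0.161 to 0.215 for PSMB8, -0.0021 to 0.0433 for UBQLN4, -0.006 to 0.0661 for DDI2, -0.0345 to 0.018 for UBQLN1 and -0.0292 to 0.0082 for PSMD5. The log2 difference then ran from -0.2402 to 0.1046 for the PSMB8 to PSMB5 ratio, from -0.492 to 0.2272 for the PSMB9 to PSMB6 ratio and from -0.5365 to -0.4008 for the PSMB10 to PSMB7 ratio. The causes of these changes were not tested. Same-numbered libraries did not deviate together (correlations of -0.002, 0.015 and 0.002), and not every library correlated best with its own number. With the replicate block, 15 proteasome genes were higher and 13 lower, PSMD12 was lost, and PSMB8 had a log2 fold change of 0.0108. Summing rows that carry the same symbol was not run, since each proteasome symbol has 1 identifier in the name table. PSMB9 rests on at most 49.4 counts a library.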

Other observations

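Further partner genes were not named by the rule and are given here in brief. ECPAS, a proteasome scaffold, was higher with Y-320 (108 ± 3.13 CPM untreated and 127 ± 3.84 CPM with Y-320, SD, n = 3, log2 fold change 0.24, edgeR adjusted p = 0.000146). The VCP cofactors UFD1 (0.20) and NPLOC4 (0.13) and the shuttle RAD23B (0.11) were higher, whereas VCP itself was lower. The polyubiquitin gene UBB was at 961, 1005 and 984 CPM untreated and at 1061, 1086 and 1102 CPM with Y-320. It rose by 0.14 log2 units, and its groups did not overlap. Of the 31-base words of UBB, 50.2% occur in another annotated gene, and 29.4% of its exon bases lie opposite exons of another gene. ZFAND5 (0.09), the second E1 enzyme UBA6 (0.09) and the deubiquitinase USP14 (0.08) were also higher, and the ubiquitin ligase UBE3C was lower (-0.09). UCHL5 (0.09), AKIRIN2 (0.06), TXNL1 (0.05), DDI2 (0.03), UBQLN4 (0.02), UBQLN1 (-0.01), NGLY1 (-0.05) and PAAF1 (-0.09) did not pass the test. Leaving out one library ended the calls of UBE3C (untreated replicate 1 or Y-320 replicate 3, -0.08 in both), USP14 (untreated replicates 2 or 3 or Y-320 replicate 2, 0.07 to 0.08), ZFAND5 (any but untreated replicate 1 and Y-320 replicate 2, 0.07 to 0.09) and UBA6 (any but untreated replicate 2 and Y-320 replicate 1, 0.07 to 0.09). Upper-quartile scaling ended the calls of USP14, ZFAND5 and UBA6, and DESeq2 those of ZFAND5 and UBA6.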
